A study of Homo sapiens with 14 samples.

Results

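The aminoacyl-tRNA synthetases are the enzymes that attach each amino acid to its tRNA, and their levels were followed in human cells in which the RNA editing enzyme ADAR1 was silenced. They were chosen by gene symbol from the table of all samples, and 36 symbols were looked up, 20 of cytosolic and 16 of mitochondrial enzymes. Of the 21574 rows of the table, 34 carried one of these symbols. The levels of IARS and IARS2 were not analysed here, and VARS and VARS2 were listed at 0 in all 10 columns. A 0 in every column cannot tell a lack of RNA from a lack of counted reads. The remaining 32 genes, 18 cytosolic and 14 mitochondrial, had values above 0 and are described below.

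The cells were labelled HepG2, an established hepatoma cell line, and carried either siADAR1 (knockdown, KD) or a scrambled siRNA (control), which the labels describe as stably transfected. PARS-seq, in which RNA is cut by S1 nuclease at unpaired bases or by RNase V1 at paired bases, gave 8 libraries, 2 for each nuclease and condition. Ribo-seq, which reads the fragments covered by ribosomes, gave 2 libraries for each condition, and RNA-seq gave 1. The study calls the PARS-seq and Ribo-seq replicates biological, the labels do not say what separated them, and p-values measure the spread between these libraries. Levels are RPKM, read counts scaled to transcript length and library depth, and each PARS-seq level is the authors' mean of an S1 and a V1 library, printed with no SD or n.

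In the cytosol 1 enzyme per amino acid does most of the charging, and glutamate and proline share the bifunctional EPRS. Several cytosolic enzymes sit in a multisynthetase complex held together by the scaffolds AIMP1, AIMP2 and EEF1E1. Mitochondria use a largely separate set, encoded in the nucleus and imported, so the split into cytosolic and mitochondrial lists by symbol is not strict. Many cytosolic synthetase genes are known targets of ATF4, a factor of the amino acid response that binds C/EBP-ATF response elements, and WARS, listed among them, is also known as an interferon-inducible gene.

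Promoter sequence was read from RefSeq windows of 300 bases, 250 before and 50 after each annotated start (build GRCh38.p14), and 30 of the 36 genes had at least 1 window. The C/EBP-ATF element was searched as TGATGNAA on both strands, and 8 of the 30 genes held it (AARS, CARS, GARS, IARS, MARS, NARS, TARS and YARS2). By windows, that was 8 of 39 synthetase windows (20.5%) against 3.62% of all 35116 windows. The interferon-stimulated response element core was searched as GAAANNGAA and was found in 12.8% of the synthetase windows and 8.11% of all windows. The gamma-activated sequence, searched as TTCNNNGAA, was found in 17.9% and 7.66% (CARS, TARS, WARS, PARS2 and WARS2). Windows of 1 gene can overlap. Thus 1 gamma-activated sequence of WARS2 and 1 interferon-stimulated element core of EARS2 were each counted in 2 windows. Matches of different motifs did not overlap. A match describes letters in these windows and not binding. For 6 genes whose values are described below, 1 match each is shown 5′ to 3′ along the gene, with the match in capitals (TTGCATCA is TGATGCAA on the other strand).
AARS, C/EBP-ATF element, chr16:70289677-70289702, minus strand: ttctcgcagTTGCATCAgccaagtta
CARS, C/EBP-ATF element, chr11:3057409-3057434, minus strand: gggcggcggTTGCATCAgattctagg
TARS, C/EBP-ATF element, chr5:33440958-33440983, plus strand: gcctttcgaTTGCATCAgctggtcca
GARS, C/EBP-ATF element, chr7:30594836-30594861, plus strand: acgcggcgaTTTCATCAtgctccgag
NARS, C/EBP-ATF element, chr18:57621806-57621831, minus strand: tacgctctcTGATGCAAcgccggaat
WARS, interferon-stimulated element core, chr14:100375385-100375411, minus strand: ttcagaaggGAAACTGAAagaaagagg
Not shown for these 6 genes are an interferon-stimulated element core in GARS and gamma-activated sequences in CARS, TARS and WARS. Matches in other genes are not shown either. Among them are the C/EBP-ATF element of YARS2, at -197 from its annotated start, and the gamma-activated sequence of PARS2. The WARS match shown lay 55 bases before the start of the second of its 2 windows, and no C/EBP-ATF match was found in either. In CARS, IARS, MARS, NARS and TARS the element lay within 15 bases of the annotated start.

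ADAR, the target of the siRNA, had 54.8 RPKM in control against 15.4 with KD in RNA-seq. Its PARS-seq level was 40.7 and 46.8 in the controls against 15.1 and 15.1 with KD. In Ribo-seq it was 43.6 in control against 8.73 with KD in replicate 1, but 55.5 and 44.03 in replicate 2, so the KD library of replicate 2 kept most of its ADAR footprints. The 8 hepatocyte markers tested (ALB, APOA1, APOB, AFP, TTR, SERPINA1, TF and FGB) summed to 0 in every Ribo-seq library and to at most 0.126 RPKM in any column. Thus the data do not show the defining transcripts of the labelled cell type, and of 5 markers of other cell types measured, COL1A1, a fibroblast collagen, stood at 9.75 to 54.7 RPKM while PTPRC, CD3E, PECAM1 and VWF were at 0.275 RPKM or less. Read starts per PARS-seq library ranged from 96618292 to 214584779, and 1 transcript took 26.03% to 54.7% of those in the transcripts compared. The table of S1 control 1 listed 4722 transcripts against 21052 to 22402 in the others. The step between low RPKM values placed the depth of the Ribo-seq libraries at 2.44% to 8.16% of the RNA-seq control library, with replicate 1 the shallowest in both conditions.

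Among the cytosolic enzymes the RNA-seq level in control was highest for FARSA, the catalytic subunit of the phenylalanine enzyme, at 190 RPKM. AARS, the alanine enzyme, was the second highest at 123 RPKM, and CARS, the cysteine enzyme, was among the lowest at 12.5. The median of the 18 cytosolic enzymes was 49.5 RPKM and that of the 14 mitochondrial ones 13.3, beside 9.30 over the 11368 genes with a mean of at least 1 RPKM. Among the mitochondrial enzymes PARS2 and MARS2 were lowest, at 3.06 and 3.40 RPKM. CARS2 and TARS2, the mitochondrial cysteine and threonine enzymes, were highest at 62.9 and 54.5. The level of CARS2 was thus above that of its cytosolic counterpart in RNA-seq, and the same order held in PARS-seq (36.7 and 45.0 against 29.8 and 29.0 in control) and in Ribo-seq (33.4 and 25.2 against 7.82 and 6.71). With 1 RNA-seq library per condition the order of neighbouring genes was not tested.

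WARS, the tryptophan enzyme (hg19 chr14:100800127-100843142, minus strand), was the synthetase that differed most between KD and control. Its RNA-seq level was 75.4 RPKM in control against 143 with KD. Its PARS-seq level was 85.8 and 85.7 in the controls against 183 and 224 with KD. Its Ribo-seq level was 93.1 and 39.4 in the controls against 157 and 108 with KD. Thus both KD values lay above both control values in PARS-seq and in Ribo-seq. The KD/control ratio of RPKM + 1 was 1.88 in RNA-seq, 2.12 and 2.59 in PARS-seq and 1.68 and 2.70 in Ribo-seq, by replicate number. By its mean log2 ratio over the 3 assays (1.08) WARS ranked 34 of 11368 genes. A bulk level cannot tell more RNA per cell from more cells of a kind that carries it.

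The read starts per nuclease gave a test for WARS, whose UCSC transcript uc001yhl.1 is 2660 bases long. The S1 libraries held 22534 and 21304 of its read starts in the controls against 45715 and 41079 with KD, and the V1 libraries 12843 and 11993 in the controls against 33488 and 30805 with KD. On log2 read starts scaled to library size, WARS rose in S1 by 1.38 ± 0.23 (SE, limma, adjusted p = 0.000179, higher in 2 of 2 KD libraries). It rose in V1 by 1.04 ± 0.20 (SE, limma, adjusted p = 0.0116, higher in 2 of 2 KD libraries). With plain library totals in place of trimmed-mean library sizes the V1 difference was 0.87 (limma, adjusted p = 0.0791), while the median of all V1 transcripts moved from 0.02 to -0.14 and that of S1 from 0.00 to -0.36.

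Of the 32 synthetases, 10 could be paired with a UCSC transcript through the study's own list of transcripts, which its authors chose on the structure of these samples. WARS was 1 of 10 that rose in S1 and 1 of 10 in V1, where 6.48% of all 4721 transcripts tested in S1 and 3.91% of all 16885 tested in V1 rose, and none of the 10 was called lower. Over all transcripts 306 were called higher and 438 lower in S1, and 660 and 1101 in V1, against 70 and 878, and 346 and 1334, with plain library totals. The other S1 differences ran from -0.28 for HARS, the cytosolic histidine enzyme, to 0.26 for EPRS. In V1 they ran from -0.45 for RARS2, the mitochondrial arginine enzyme (limma, adjusted p = 0.195), to 0.20 for FARSA (limma, adjusted p = 0.551). In these fits the 9 transcripts passed the threshold in neither nuclease. HARS and HARS2 overlap by 108 bases at their 5′ ends on opposite strands (hg19 chr5:140052620-140071122 and chr5:140071015-140078890), and the RPKM counting is described without a strand option, so reads in the overlap cannot be told apart.

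**Figure D1:**
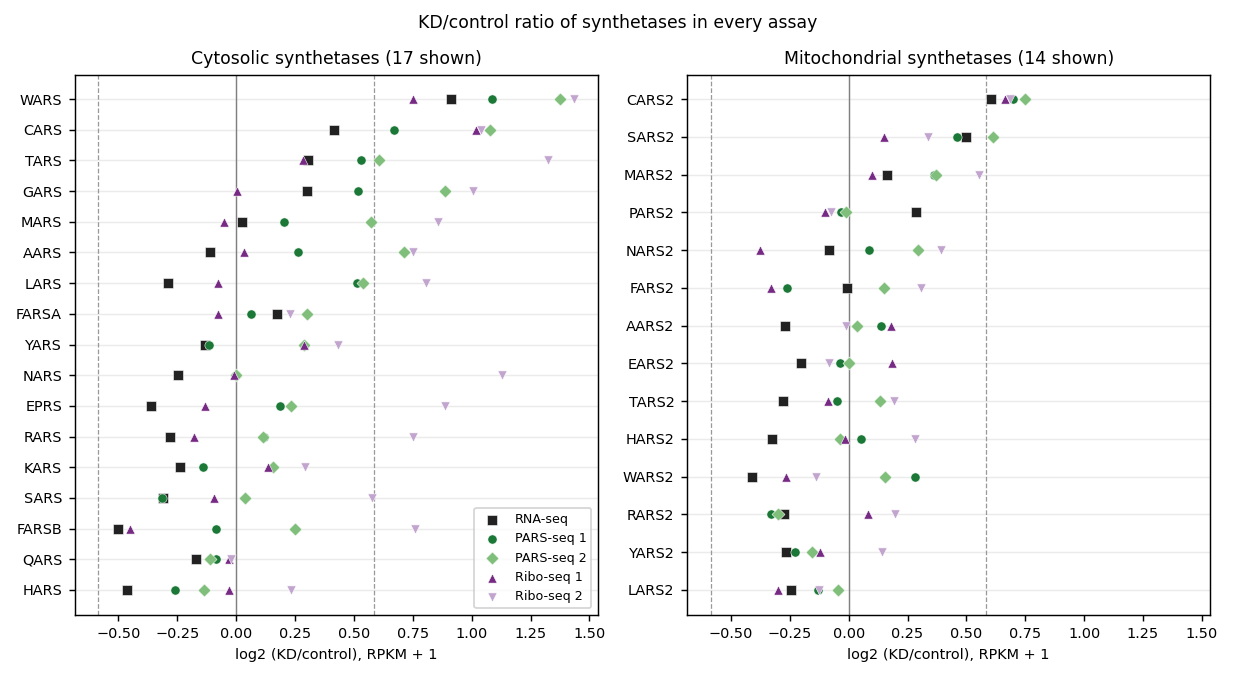
The log2 KD/control ratio of RPKM + 1 is plotted for 17 of the 18 cytosolic (left) and all 14 mitochondrial (right) synthetases, ordered by their mean over the 3 assays, with 1 symbol for RNA-seq and for each replicate number of PARS-seq and Ribo-seq, and dashed lines at a fold of 1.5. WARS and CARS2 lie right of the upper dashed line in all 5 ratios, and the Ribo-seq 2 symbols of most cytosolic enzymes lie right of their Ribo-seq 1 symbols.

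CARS2 (hg19 chr13:111293759-111365950, minus strand) was the other enzyme above 1.5-fold in every ratio. Its RNA-seq level was 62.9 RPKM in control against 96.1 with KD, a ratio of 1.52. Its PARS-seq level was 36.7 and 45.0 in the controls against 60.3 and 76.3 with KD. Its Ribo-seq level was 33.4 and 25.2 in the controls against 53.5 and 41.1 with KD. The groups did not overlap in either assay, and the 5 ratios of CARS2 lay between 1.52 and 1.68. Thus WARS and CARS2, 2 of 32 synthetases, were at least 1.5-fold higher in RNA-seq and in both replicate numbers of PARS-seq and Ribo-seq, beside 0.378% of 11368 genes. None was lower in all, beside 0.413%. These shares are 43 and 47 genes, and 31 and 62 after centring each library on its median, where CARS2 no longer met the rule and WARS did.

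CARS (hg19 chr11:3022152-3078843, minus strand) came second to WARS by its mean log2 ratio (0.77), ahead of CARS2 (0.67). Its RNA-seq level was 12.5 RPKM in control against 17.0 with KD. Its PARS-seq level was 29.8 and 29.0 in the controls against 48.1 and 62.3 with KD. Its Ribo-seq level was 7.82 and 6.71 in the controls against 16.9 and 14.9 with KD, a ratio of 2.03 and 2.06. On the log2 scale the Ribo-seq difference was 1.03 ± 0.39 (SE, limma, adjusted p = 1.00), and CARS had the lowest p of the 32 before adjustment. The Ribo-seq levels rest on few reads, since the smallest whole numbers in the proportions of its values were 22 and 63 in the controls against 67 and 101 with KD, against 1435 and 1449 in RNA-seq.

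**Figure D2:**
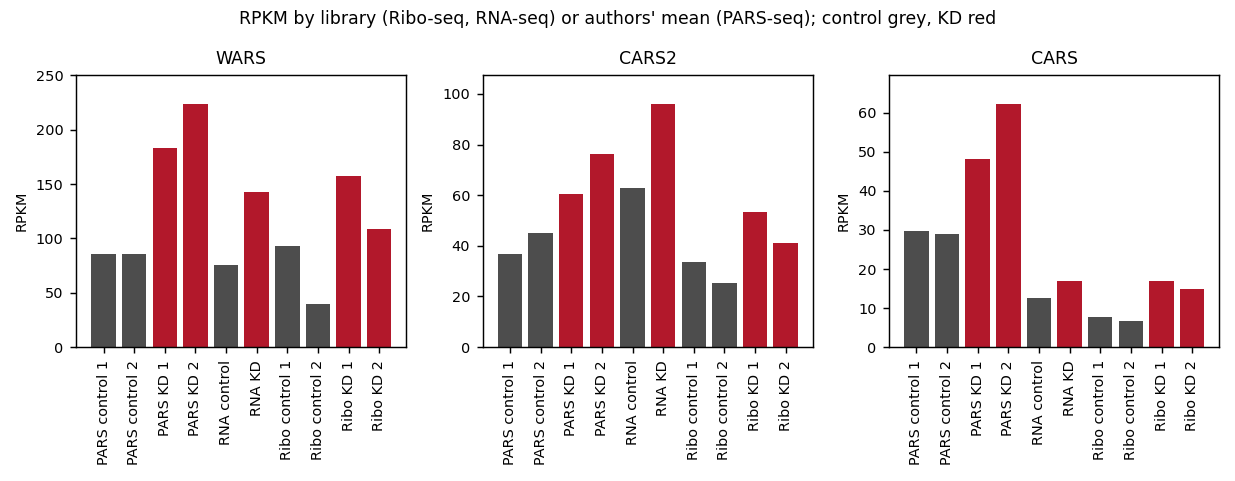
RPKM of WARS, CARS2 and CARS is plotted on an axis from 0 in each of the 10 columns, with control in grey and KD in red, where each Ribo-seq or RNA-seq bar is 1 library and each PARS-seq bar the authors' mean of an S1 and a V1 library. In WARS the KD bars reach 183 and 224 in PARS-seq against 85.8 and 85.7 in control, and in all 3 genes each KD bar is above the control bars of its assay.

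In RNA-seq, 2 of 32 synthetases (WARS and CARS2) were at least 1.5-fold higher in KD, beside 4.47% of 10944 genes. None was 1.5-fold lower, beside 4.66%. The lowest ratio was that of FARSB, the regulatory subunit of the phenylalanine enzyme, at 21.5 RPKM in control against 14.9 with KD (0.706-fold). The median log2 ratio was -0.15 for the cytosolic and -0.22 for the mitochondrial enzymes and -0.01 for all genes. With 1 library per condition these ratios have no replicate check.

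In PARS-seq, 4 of 32 (WARS, CARS, GARS and CARS2) met the rule that both KD values lie above both control values with a mean ratio of at least 1.5, beside 8.12% of 11151 genes. None met it downwards, beside 8.43%. Without replicate 1 the count was 7, with AARS, TARS and SARS2 added, beside 8.11%. GARS, the glycine enzyme, stood at 120 and 122 RPKM in the controls against 173 and 227 with KD. TARS, the threonine enzyme, was just under that ratio, with 121 and 95.2 in the controls against 175 and 145 with KD. AARS stood at 159 and 134 in the controls against 191 and 221 with KD, and LARS, the leucine enzyme, at 31.8 and 35.9 in the controls against 45.8 and 52.5 with KD. In these 3 genes the KD values were above the control values too. At the low end in PARS-seq, RARS2 was at 75.5 and 62.4 in the controls against 59.9 and 50.5 with KD, and YARS2 at 9.87 and 9.87 against 8.27 and 8.75, both with the KD values below the control values. HARS was at 24.5 and 28.1 in the controls against 20.3 and 25.5 with KD, where the groups overlapped. LARS2 and YARS2, the mitochondrial leucine and tyrosine enzymes, had with HARS the 3 lowest mean log2 ratios over the 3 assays, at -0.18, -0.15 and -0.19. In PARS-seq the median log2 ratio of the cytosolic enzymes was 0.15 and that of the mitochondrial ones 0.02, beside 0.04 over all genes.

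In Ribo-seq, none of the 32 synthetases passed the threshold, nor did any of the 10880 genes tested (0%, limma on log2 RPKM + 1), although 43 genes had an unadjusted p under 0.05. On simulated data this fit recovered 0% of 2-fold and 22% of 4-fold changes. The absence of calls therefore does not show an absence of change. The estimate for WARS was 1.09 ± 0.65 (SE), with a 95% interval from -0.55 to 2.73. Without Ribo-seq KD replicate 2, the library that kept most of its ADAR footprints, it was 1.36 ± 1.39 (SE) for WARS, and none of the 32 was called while 24 of all genes were. The KD arm is then 1 library, assumed to vary as the controls do, so the SE rests on the spread between the 2 controls. The replicates of 1 condition also differed. In control, replicate 1 was above replicate 2 in 16 of 18 cytosolic enzymes, beside 57.5% of all genes, with a median log2 difference of 1.21, beside 0.20 over all genes. The mitochondrial median was 0.63. In KD the cytosolic median difference was 0.64, beside 0.07 over all genes.

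The summed level of the 18 cytosolic enzymes was 1415 RPKM in control 1 and 577 in control 2, and 1483 in KD 1 and 981 in KD 2. Thus both replicate 1 libraries lay above both replicate 2 libraries. The KD/control ratio also differed by number, with a cytosolic median log2 of -0.03 in replicate 1 and 0.76 in replicate 2, beside -0.01 and 0.14 over all genes. In replicate 2, 12 of 18 cytosolic enzymes and 1 of 14 mitochondrial ones were at least 1.5-fold higher in KD, beside 19.1% of all genes. In replicate 1 it was 2 of 18 (WARS and CARS) and 1 of 14 (CARS2), beside 9.82%. Replicate 2 was also the one whose KD library kept most of its ADAR footprints, and the part of that in these ratios was not tested.

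NARS, the asparagine enzyme, illustrates the difference between numbers. It stood at 82.7 RPKM in control 1 and 82.3 in KD 1, but at 24.7 in control 2 and 55.1 in KD 2. Its PARS-seq level was 142 and 147 in the controls against 142 and 147 with KD. TARS went from 170 to 207 in replicate 1 and from 47.5 to 121 in replicate 2. QARS, the glutamine enzyme, kept 55.4 and 59.3 in the controls against 54.2 and 58.3 with KD.

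**Figure D3:**
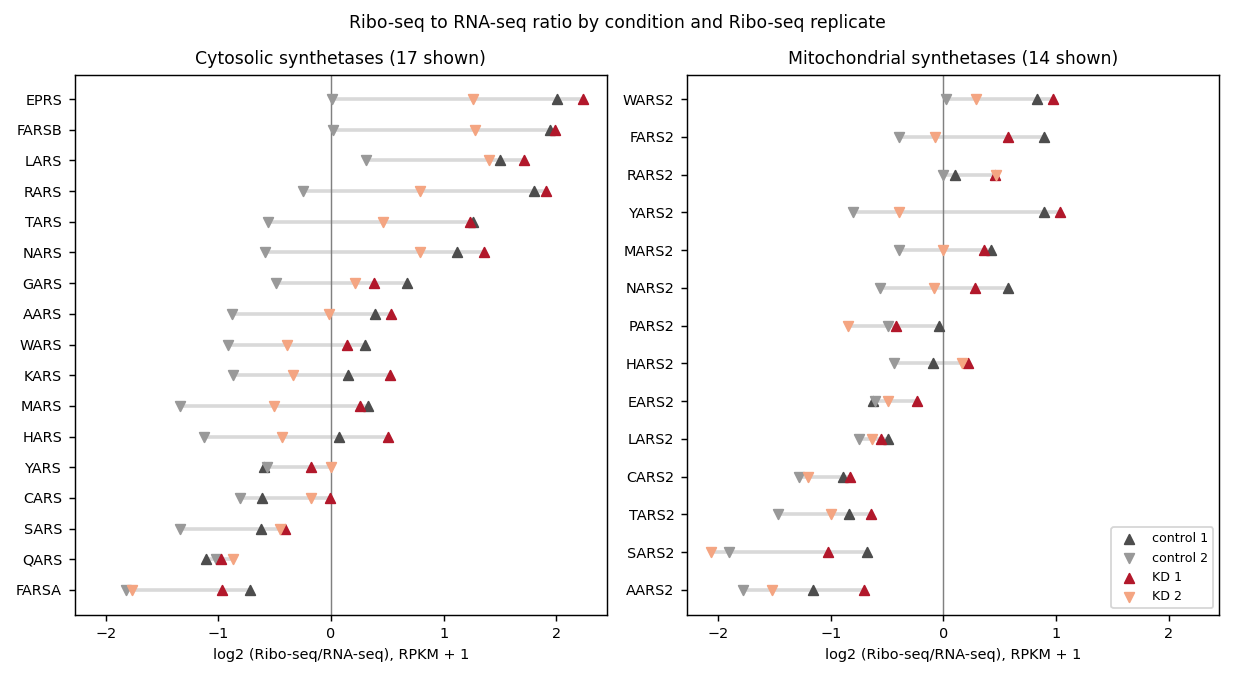
The log2 ratio of Ribo-seq to RNA-seq (RPKM + 1) of 17 cytosolic and 14 mitochondrial synthetases is plotted for control (grey) and KD (red) and for Ribo-seq replicate 1 (up triangles) and 2 (down triangles), ordered by the mean of the control values, with a grey line over the range. EPRS and FARSB reach 2.01 and 1.94 in control 1 and lie at 0.01 and 0.02 in control 2.

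The ratio of Ribo-seq to RNA-seq, which describes how many footprints a gene has for its RNA, was taken on the log2 scale. In control 1 the median was 0.36 for the cytosolic and -0.07 for the mitochondrial enzymes, beside -0.34 over all genes. In control 2 it was -0.69 and -0.59, beside -0.53. Thus the cytosolic median was above that of all genes in 1 replicate and below it in the other. EPRS and FARSB had a high control ratio by the mean of both numbers, at 1.01 and 0.98. AARS2, SARS2 and FARSA had the lowest, at -1.47, -1.29 and -1.27. AARS2 and SARS2 are the mitochondrial alanine and serine enzymes.

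FARSA and FARSB are the subunits of 1 enzyme. FARSA had 190 RPKM in RNA-seq and FARSB 21.5 in control. Their Ribo-seq levels were nearer to each other, at 115 and 52.9 for FARSA and 85.5 and 21.8 for FARSB. In PARS-seq FARSA was at 99.1 and 92.3 and FARSB at 39.6 and 36.7, so that the gap between the subunits was widest in RNA-seq.

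In the multisynthetase complex, the median log2 ratio of Ribo-seq to RNA-seq over the 7 enzymes measured was 1.5 in control 1, with EPRS at 2.01 and RARS, the cytosolic arginine enzyme, at 1.81. In control 2 it was -0.25, with none of the 7 above 1.5-fold, beside 12.7% of all genes. QARS was the lowest of the 7 in control 1, at -1.11. The scaffolds AIMP1 and AIMP2 had a Ribo-seq level of 21.5 and 61.4 RPKM in control 1 and 4.38 and 19.7 in control 2. Of the 7 complex enzymes 6 were also higher in control 1, beside 57.5% of all genes, and QARS was not. In KD against control, AIMP1 was 0.759-fold and 1.56-fold in Ribo-seq by replicate number, and AIMP2 was 0.839-fold and 2.06-fold.

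Of the 32 synthetases, only CARS had a Ribo-seq to RNA-seq ratio more than 1.5-fold higher in KD in both numbers, by 0.60 and 0.62 on the log2 scale, beside 2.75% of 11163 genes. None was lower in both, beside 2.88%. Both numbers use the same RNA-seq library of each condition, so the 2 differences are not independent. Both values of CARS lay close above the threshold, and after median-centring the gene no longer met it, while the split over all genes moved from 307 higher and 321 lower to 229 and 402. From replicate 2 alone 14 of the 32 passed 1.5-fold upwards, beside 23.2% of all genes, and from replicate 1 alone 1 did, beside 8.64%. All 18 cytosolic enzymes had a higher ratio in KD in replicate 2, as did 61.8% of all genes, with a median of 0.84 beside 0.18. In replicate 1 it was 12 of 18, beside 50.5% of all genes, with a median of 0.14 beside 0.00. WARS had -0.16 in replicate 1 and 0.52 in replicate 2.

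**Figure D4:**
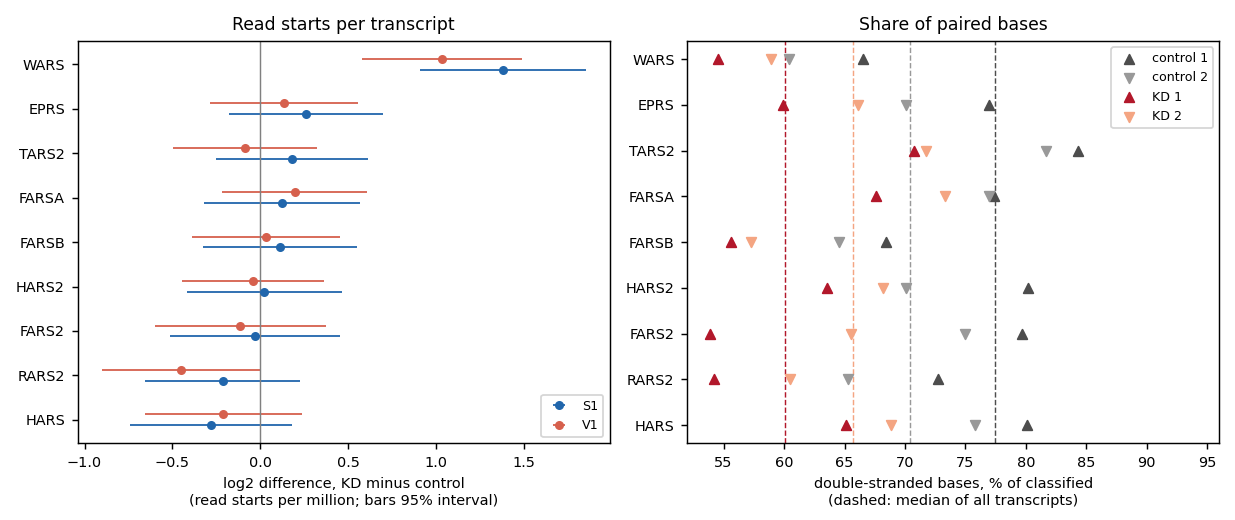
Left, the log2 difference in read starts, scaled to library size, of 9 of the 10 member transcripts, KD minus control, in the S1 (blue) and V1 (red) fits with 95% intervals. Right, the share of classified bases called double-stranded in each condition and replicate, with dashed lines at the median of all transcripts. Only the intervals of WARS lie to the right of 0, and both KD symbols lie left of both control symbols in all 9 transcripts plotted.

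The share of paired bases, DS/(DS + SS), counts bases with significantly more V1 than S1 read starts (DS) among the bases called either way by Fisher's exact test. For WARS it was 66.5% and 60.4% in the controls against 54.5% and 58.9% with KD, from 786 to 1106 classified bases. For EPRS it was 76.9% and 70.1% in the controls against 59.9% and 66.1% with KD. All 10 members had both KD values below both control values, beside 83.9% of 4483 transcripts, so the members' count is near the background. The medians over all transcripts were 77.4% and 70.4% in the controls against 60.1% and 65.7% with KD.

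When each transcript's own totals replaced the library totals in the test, 8 of 10 members had both KD values below both control values, beside 50.7% of 4478 transcripts. WARS was an exception, and its values overlapped (73.5% and 71.5% in control, 72.5% and 71.1% in KD). HARS2 was among the 8, at 52.2% and 51.9% in the controls against 42.9% and 36.9% with KD. The largest member transcript, EPRS with 5021 bases, had 62.7% and 60.3% in the controls against 58.2% and 50.7% with KD. Since these 10 were listed by the study for their structure in the same samples, their direction is not independent evidence.

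Of the 11 commonly listed ATF4 targets measured, 3 (CARS, GARS and WARS) met the PARS-seq rule upwards, beside 8.12% of all genes, and the median log2 ratio of the 11 was 0.49, beside 0.04. The median of the 11 was 0.26 in PARS-seq replicate 1 and 0.57 in replicate 2, beside 0.03 and 0.04 over all genes. In RNA-seq their median was -0.11, beside -0.01 over all genes, with 1 of 11 (WARS) past 1.5-fold upwards, beside 4.47%, and in Ribo-seq it was 0.01 in replicate 1 and 0.89 in replicate 2. Of the 7 enzymes of the multisynthetase complex none met the PARS-seq rule, and their PARS-seq median was 0.12. Among class I enzymes, which share a Rossmann fold in the catalytic domain, 3 of 15 met the PARS-seq rule (CARS, WARS and CARS2), and among class II enzymes 1 of 17 (GARS). These counts describe the lists and were not tested against other genes.

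Of 12 genes of the amino acid response, 6 met the PARS-seq rule upwards (DDIT3, TRIB3, ASNS, PSAT1, PHGDH and PSPH) and none downwards, beside 8.12% and 8.43% of all genes. In Ribo-seq the list's median log2 ratio was -0.07 in replicate 1, with 1 gene past 1.5-fold each way, beside 9.82% of all genes higher and 10.9% lower. It was 0.70 in replicate 2, with 6 higher and 1 lower, beside 19.1% and 8.38%. ASNS, asparagine synthetase, was in PARS-seq at 28.2 and 30.5 RPKM in the controls against 57.7 and 91.6 with KD. PSPH, the last enzyme of serine synthesis, was in PARS-seq at 35.5 and 30.2 in the controls against 82.4 and 73.0 with KD. ATF4 itself was in PARS-seq at 93.0 and 94.5 in the controls against 104 and 133 with KD, under the fold. In Ribo-seq ASNS was at 36.6 and 12.9 RPKM in the controls against 28.5 and 47.9 with KD, lower in replicate 1 and higher in replicate 2. In RNA-seq TRIB3, a pseudokinase induced in the same response, was the only one of the 12 above 1.5-fold (41.0 to 70.0 RPKM), beside 4.47% of all genes, and SLC7A11, the cystine transporter, was the only one below it (2.00 to 0.764), beside 4.66%. The list's median log2 ratio was 0.21 in RNA-seq and 0.63 in PARS-seq.

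In the interferon response list, ISG15, an interferon-induced ubiquitin-like protein, had 301 RPKM in control against 540 with KD in RNA-seq, and IFIT3 had 17.4 against 31.2, both past 1.5-fold. In PARS-seq none of the 6 genes with enough signal met the rule upwards, beside 8.12% of all genes, and IFIT1 alone met it downwards, beside 8.43%, with 51.2 and 43.96 RPKM in the controls against 30.9 and 29.2 with KD. TAP1, PSMB8 and PSMB9 were listed at 0 in all columns, which is read with the same limit as for VARS. MX1 was under 1 RPKM on average.

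Of the genes for tRNA charging and handling none of the 12 tested in PARS-seq met the rule, beside 8.12% higher and 8.43% lower over all genes, and none of the 10 tested in RNA-seq, beside 4.47% and 4.66%. AARSD1, an editing factor for misacylated tRNA, was in PARS-seq at 101 and 119 in the controls against 122 and 130 with KD. PTRH2, a peptidyl-tRNA hydrolase, was at 51.6 and 12.1 RPKM in the controls against 57.1 and 25.5 with KD in Ribo-seq, where replicate 1 was again above replicate 2.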

How the data were processed

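Per the submitters' notes and methods, reads were trimmed with cutadapt and mapped to hg19 with Bowtie2. The authors kept unique alignments, counted them on RefSeq transcripts and deposited RPKM values per gene, with each PARS-seq value a mean over an S1 and a V1 library. They also deposited raw read starts at each base of UCSC transcripts as lists, which were summed here per transcript. Positions in hg19 are from a GENCODE annotation lifted to GRCh37. Versions are not given in the sources used here. Ribo-seq was tested with limma 3.58.1 (mean trend, log2(RPKM + 1), mean RPKM of at least 1, Benjamini-Hochberg over all genes, call at adjusted p under 0.05), on whose scale fold changes of low genes are understated. S1 and V1 sums were tested the same way on log2 read starts scaled to trimmed-mean library sizes, with 0.5 added and a minimum of 10 read starts in 2 libraries and 15 in all. A count model had been planned for them but was not used, since the cells hold lists. PARS-seq RPKM, RNA-seq and ratios were described by a fold of 1.5, with the mean of the columns used at least 1. Paired bases were called by a two-sided Fisher's exact test at p under 0.05, against read starts in the 4722 transcripts listed in all 8 libraries, for transcripts over 100 bases with over 256 read starts in each library and at least 20 classified bases. Scripts were tested on simulated data. Genes named in full were those called in a fit, those past 1.5-fold in every ratio, the 2 highest and 2 lowest cytosolic and mitochondrial by control RNA-seq, the 3 highest and 3 lowest by Ribo-seq to RNA-seq ratio, and the 3 highest and 3 lowest by mean ratio, less those not reported. Other genes with values were chosen after their values were seen. The members and lists were chosen with earlier results of these data known. Results of some genes are not reported here, and the plots leave them out.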

Additional observations from a re-analysis of the deposited data

How the results depend on the processing

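The settings tried were another pseudocount (0.1), a higher minimum (5 RPKM), no filter, median-centring, a fold of 2, other library sizes, leaving out replicates and a replicate block. Plain library totals and median-of-ratios library sizes were chosen after seeing the data, and the planned count models for S1 and V1 were not run. With a fold of 2 the number of synthetases was 0 in RNA-seq, 1 in PARS-seq (WARS), 0 in every assay and 0 for the Ribo-seq to RNA-seq ratio. Median-centring left 1 synthetase in every assay (WARS) and 0 for the ratio. Leaving out a replicate number gave 3 to 7 synthetases in PARS-seq and 1 to 14 for the ratio, the 14 without replicate 1. With plain library totals 0 of 10 transcripts were called in V1, and the median of all S1 transcripts moved from 0.00 to -0.36 on the log2 scale, so that EPRS, FARSA, FARSB, HARS2 and TARS2 lay below 0. The cause was not tested.

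The replicate numbers are shared by control and KD, with 2 pairs in each assay, and the labels do not tie them to a batch. Same-numbered libraries deviated together (correlation 0.81 in Ribo-seq, 0.467 in S1 and 0.388 in V1). With the replicate block, 0 of 32 synthetases but 143 of 10880 genes were called in Ribo-seq (adjusted p = 0.0606 for CARS and 0.18 for WARS, limma), 1 of 10 in S1 and 2 of 10 in V1, where RARS2 was called lower (-0.45, limma, adjusted p = 0.00355). The block moved the calls over all transcripts from 744 to 1448 in S1 and from 1761 to 5887 in V1.

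Over all features, without S1 control replicate 1 the S1 calls fell to 390 and without S1 KD replicate 2 to 478. Without V1 control replicate 2 the V1 calls were 3500, without V1 KD replicate 2 1045, and over the transcripts listed in all 8 libraries 515. Without Ribo-seq KD replicate 2, 24 genes were called. The all-gene counts were 999 in RNA-seq, 1845 in PARS-seq, 90 in every assay and 628 for the ratio. A fold of 2 gave 189, 467, 14 and 97. The higher minimum gave 632 in RNA-seq and 370 for the ratio, and the lower pseudocount 176 in every assay and 1020 for the ratio. Without replicate 1 and without replicate 2 every assay gave 140 and 310 and the ratio 3925 and 2022. WARS was also past the threshold in S1 and V1 with each library left out, but there 1 arm is a lone library assumed to vary like the other arm. Depth limits the lowest members in Ribo-seq, where the values of PARS2 in control stand for reads in the proportion of 7 and 15.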

Other observations

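The interferon response genes also differed between the Ribo-seq replicate numbers. Their median log2 difference of replicate 1 over replicate 2 was 2.19 in control and 2.68 in KD, beside 0.20 and 0.07 over all genes. OAS1, a sensor of double-stranded RNA, was at 25.8 and 5.14 in control and 58.0 and 2.72 in KD, so that its direction differed between the numbers. In the amino acid response list the median was 0.46 in control and -0.41 in KD, so only the KD libraries differed the other way.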
